A study of Mus musculus with 6 samples.

Results

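Glucose breakdown and the response to low oxygen were examined through 42 genes of mouse cardiac fibroblasts, which build and repair the matrix of the heart, after loss of Acta2, which encodes smooth muscle actin α. The 42 genes were chosen by symbol from a table of 25746 genes: 2 glucose transporters, 15 glycolytic enzymes, 2 regulators of phosphofructokinase, 8 genes that decide the fate of pyruvate and lactate, 6 hypoxia-inducible factor (HIF) genes and oxygen sensors, and 9 HIF targets outside glycolysis. Each symbol was found, and 1 of them, Aldoa, named 2 rows of the table, of which the row with identifier ENSMUSG00000114515 held 0 in every sample and was not used. All 42 genes passed the filter on low counts, which left 12192 genes for testing.

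RNA-seq was done on 2 Acta2 knockout (KO) and 2 wild-type (WT) samples, and ATAC-seq, an assay of chromatin openness, on 1 sample of each genotype. On one reading of the labels, fibroblasts of Acta2fl/fl mice (KO) and of WT mice were infected in culture with Adeno-Cre and exposed to TGFβ for 2 days, so that both genotypes carried the virus and the cytokine. On the other reading they were eGFP+ cells of the Tcf21 lineage, sorted from hearts of mice that had tamoxifen for a MerCreMer (75 mg/kg daily on 5 days, first when 6 weeks old), coronary ligation when 9 weeks old, and a further tamoxifen course around the ligation. The labels attach both accounts to each library, so the source of the cells and their age at collection cannot be told apart here, and of the MerCreMer they say only that it acted in cardiac fibroblasts, without naming its promoter. Separate cultures or animals are not stated for the replicates either, and p-values then measure the spread between these samples alone, which may be technical.

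Glycolysis converts glucose to pyruvate in the cytosol, and lactate dehydrogenase and the monocarboxylate transporters then let cells reduce the pyruvate and export it as lactate. HIF is a pair of an α subunit and the constant partner ARNT; with oxygen, prolyl hydroxylases mark the α subunit for destruction by the VHL ubiquitin ligase, and without it the pair binds a short core motif near its targets and raises transcription of nearly the whole glycolytic pathway. TGFβ-activated fibroblasts are known for a high glycolytic rate.

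The libraries held between 8429166 and 11370115 estimated counts. Acta2, the targeted gene, was at 256 and 265.5 CPM (counts scaled to a common library total) in KO, against 2186 and 2200 CPM in WT, and 11.9% of the WT level remained. Fibroblast genes were abundant, and 8 of the 10 listed fibroblast markers were lower in KO and 1 higher, with sums of 3523 and 3528 CPM in the KO pair against 4913 and 4827 CPM in the WT pair. Of 10 macrophage markers, 6 could be tested, of which 5 rose and Csf1r did not pass. Their sums were 173 CPM in both KO samples and 98.9 and 96.3 CPM in WT. Among those not tested, Ptprc held 11 and 9 counts in the KO pair against 5 and 1 in the WT pair. Mrc1 held 0 and 5 counts against 5 and 0, Cd163 0 and 0 against 1 and 0, and Fcgr1 was at 0 throughout. Of 9 endothelial markers, 7 rose and 1 fell, with sums of 144 and 155 CPM in the KO pair against 115 and 109 CPM in the WT pair. Cardiomyocyte markers other than Tnnt2 had at most 7 estimated counts in a sample, and Pln had 0. Of 4 tested pericyte and smooth muscle markers 2 rose and 2 fell, and of 5 mesothelial markers 1 rose and 4 fell. Red cell markers summed to 4.03 and 8.4 CPM in the KO pair against 31.8 and 2.21 CPM in the WT pair, so that WT replicate 1 stood apart. The part of these shifts in the values below was not tested, and in bulk RNA a change in the number of cells of a type and a change in RNA per cell cannot be told apart.

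Across the 42 genes the changes were small and went both ways. In KO, 14 rose and 9 fell, while 19 did not pass an adjusted p of 0.05 in edgeR's quasi-likelihood test. Among all tested genes 35.7% were called, 18.3% higher and 17.4% lower. The median log2 fold change of KO over WT was 0.07 for the 42 genes and 0.001 for all tested genes, and the median absolute change was 0.17 against 0.21. No member reached a 2-fold change. KO and WT samples did not overlap for 32 of the 42 genes, 22 higher and 10 lower in KO, where 67.1% of all tested genes showed no overlap, 34.3% higher and 32.7% lower. Of the 23 calls, 12 had an absolute log2 fold change of at least 0.3, which 23.3% of all tested genes reached together with a call. Of these 12 members, 10 were higher and 2 lower in KO. The split by direction of all tested genes at this cut was not counted. Where a biological coefficient of variation (BCV) of 0.2 was assumed for every gene in place of the fitted 0.0311, edgeR's likelihood ratio test kept 0 of the 23 calls, with 2 members at an unadjusted p under 0.05. With a BCV of 0.1 it kept 10, all among the 12 larger changes, of which it lost Vegfa and Bnip3. DESeq2 kept 17 and did not call Hk2, Pfkp, Eno1, Ldhb, Egln3 or Vegfa. Of all 12192 tested genes, 398 were called with a BCV of 0.2, 1780 with a BCV of 0.1 and 2058 with DESeq2.

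**Figure D1:**
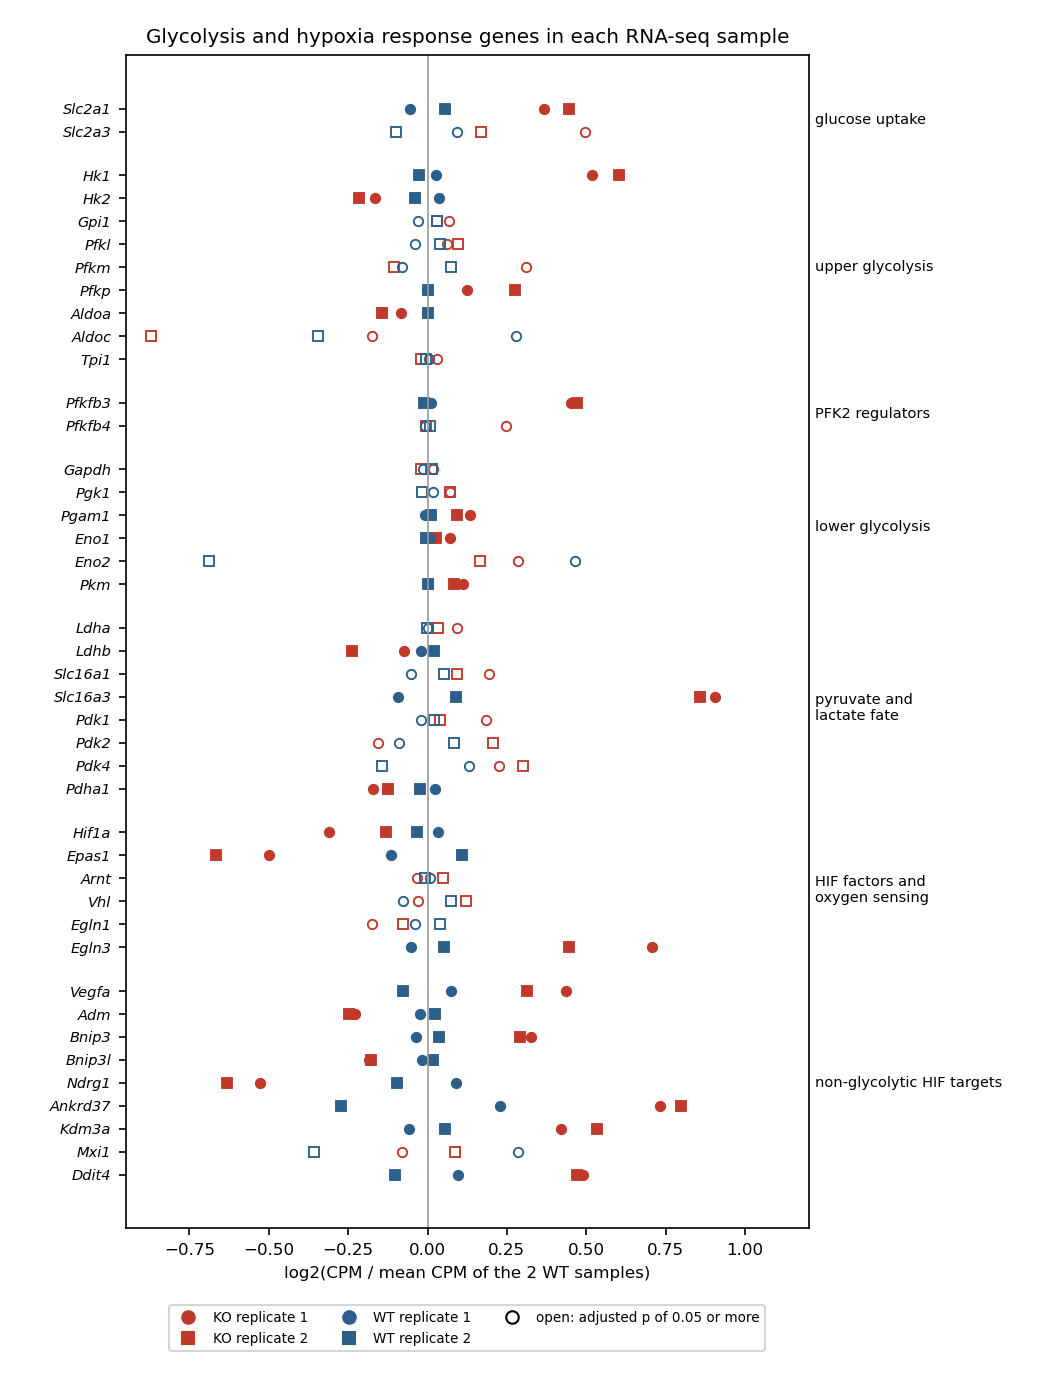
Level of each of the 42 genes in each RNA-seq sample, as log2 of CPM over the mean CPM of the WT samples, with genes in rows grouped by role; red points are KO, blue points WT, circles replicate 1, squares replicate 2, and open points genes with an adjusted p of 0.05 or more. Slc16a3 and Ankrd37 lie farthest to the right in KO and Epas1 and Ndrg1 farthest to the left among called genes, while the most abundant enzymes stay near 0.

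The main glucose transporter gene was higher in KO. Slc2a1, the main basal glucose transporter GLUT1 (ENSMUSG00000028645, chromosome 4, 119108711 to 119137983 in mm10, plus strand), had 270.0 and 285 CPM in the KO pair against 201.5 and 217 CPM in the WT pair. Both KO samples lay above both WT samples, at a log2 fold change of 0.41 with SE 0.046 (edgeR adjusted p = 6.13e-08). Slc2a3, the high-affinity transporter GLUT3, was far rarer. It had 12.4 and 9.86 CPM in the KO pair against 9.35 and 8.19 CPM in the WT pair, and its log2 fold change of 0.35 (SE 0.17) did not pass. Per transcript length, Slc2a1 made up 98.1% of the 2 transporters in KO and 98.0% in WT.

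The first enzymatic step showed opposite changes of its isozymes. Hk1, the hexokinase of most tissues (ENSMUSG00000037012, chromosome 10, 62268855 to 62379908, minus strand), had 121.5 and 129 CPM in the KO pair against 86.5 and 83.2 CPM in the WT pair, for a log2 fold change of 0.56 with SE 0.055 (edgeR adjusted p = 4.84e-09). Hk2, the inducible hexokinase of muscle and of HIF responses, had 83.3 and 80.4 CPM in the KO pair against 95.9 and 91.0 CPM in the WT pair, for a log2 fold change of -0.19 with SE 0.058 (edgeR adjusted p = 0.0121). KO samples were thus above WT for Hk1 and below WT for Hk2, without overlap. Counted per length of the annotated exons, as length-scaled transcript levels (TPM), Hk1 took 50.5 and 52.9% of the hexokinase pair in KO and 38.7 and 39% in WT. The call of Hk2 ended without KO replicate 2 or without WT replicate 1, where its log2 fold change was -0.16 in each case, while Hk1 kept its call without each library.

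Further along upper glycolysis most enzymes differed little. Aldoa, the aldolase of muscle and most other cells and the most abundant of these enzymes, had 2461 and 2363 CPM in the KO pair against 2607 and 2608 CPM in the WT pair, for a log2 fold change of -0.11 with SE 0.023 (edgeR adjusted p = 0.000333). Of the phosphofructokinases, which catalyse the committed step, Pfkp, the platelet form, rose by 0.20 on the log2 scale (SE 0.055). Its samples held 125.5 and 139 CPM in the KO pair against 115.0 and 115.1 CPM in the WT pair, and without KO replicate 2 the change was 0.13 and the call ended. Pfkl, the liver form, and Pfkm, the muscle form, had log2 fold changes of 0.08 and 0.12 that did not pass. The isomerases Gpi1 and Tpi1 were at 0.05 and 0.003, also not called. Aldoc, the brain aldolase, held 27 and 16 counts in the KO pair against 27 and 19 in the WT pair, with overlapping samples. Together, 2 of the 9 upper enzymes rose, 2 fell and 5 did not pass, beside 18.3% and 17.4% of all genes.

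Pfkfb3 encodes a bifunctional enzyme that makes the strongest activator of phosphofructokinase and so sets the pace of glycolysis (ENSMUSG00000026773, chromosome 2, 11471433 to 11554077, minus strand). It had 53.8 and 54.5 CPM in the KO pair against 39.6 and 39 CPM in the WT pair, for a log2 fold change of 0.46 with SE 0.077 (edgeR adjusted p = 2.85e-05). The replicates of each genotype lay within 1 CPM of each other. Pfkfb4, a relative that is also a HIF target, was near 5 CPM in 3 of the samples and at 5.87 CPM in KO replicate 1, and did not pass.

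The lower part of the pathway, from glyceraldehyde phosphate to pyruvate, held the most abundant transcripts, and its changes were small. Eno1, the general enolase (ENSMUSG00000063524, chromosome 4, 150236721 to 150248879, plus strand), had 7329 and 7123 CPM in the KO pair against 7016 and 6956 CPM in the WT pair, for a log2 fold change of 0.05 with SE 0.017 (edgeR adjusted p = 0.0282). Pkm, the pyruvate kinase of non-liver tissues, had 5682 and 5579 CPM in the KO pair against 5261 and 5262 CPM in the WT pair, for a log2 fold change of 0.10 with SE 0.018 (edgeR adjusted p = 8.53e-05). Pgam1, the phosphoglycerate mutase, rose by 0.11 (SE 0.027). Gapdh, often used as a reference gene, had 1456 and 1416 CPM in the KO pair against 1425 and 1451 CPM in the WT pair, and its samples overlapped. Pgk1 and the neuronal enolase Eno2 did not pass either. In all, 3 of the 6 lower enzymes rose and 0 fell, beside 18.3% and 17.4% of all tested genes. The calls of Eno1 and Pgam1 ended without KO replicate 1, at log2 fold changes of 0.02 and 0.09, and that of Eno1 also without WT replicate 2, at 0.04. Parts of these genes also occur in transcripts of other genes, namely 51.7% of 100-base windows for Pgk1, 33.9% for Pgam1, 20.9% for Gapdh, 20.4% for Eno1 and 12.3% for Pkm, so their counts depend on how reads were shared out.

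Summed over the 15 enzymes from hexokinase to pyruvate kinase, the level was 13890 and 13680 TPM in KO and 13060 and 13270 TPM in WT. That is 1.39 and 1.37% of all transcripts in KO and 1.31 and 1.33% in WT. Of the 8 glycolytic and lactate enzymes above 500 TPM in both genotypes, 3 rose, 1 fell and 4 did not pass. Among all tested genes, at any level, 35.7% were called. The log2 fold changes of these 8 enzymes ran only between -0.11 and 0.11, and Adm, the other member above 500 TPM, was at -0.24. All 12 calls with an absolute log2 fold change of at least 0.3 were among the 33 members below 500 TPM.

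**Figure D2:**
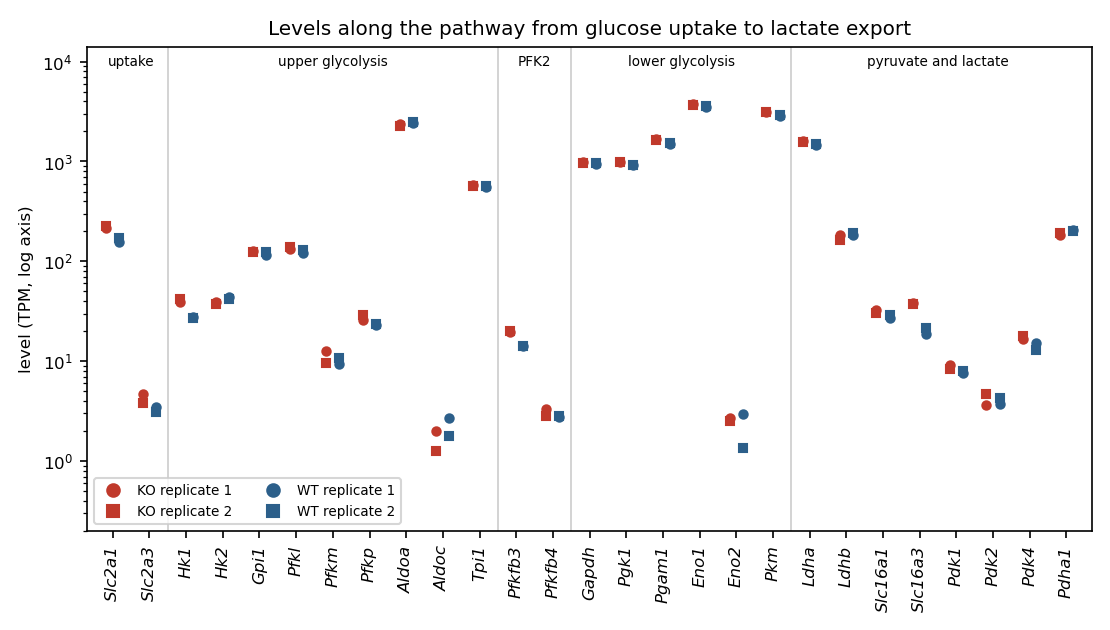
Level in TPM, on a log axis, of the transport and enzyme genes in pathway order, with KO samples in red on the left of each position and WT samples in blue on the right. The 7 glycolytic enzymes from Aldoa and Tpi1 to Pkm that exceed 500 TPM and Ldha form a plateau on which KO and WT nearly coincide, and the visible gaps are at Slc2a1, Hk1, Pfkfb3 and Slc16a3.

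Among the genes that act on pyruvate and lactate, 1 of 8 rose and 2 fell, beside 18.3% and 17.4% of all tested genes. The 1 that rose was Slc16a3, which encodes the monocarboxylate transporter MCT4 that exports lactate from glycolytic cells (ENSMUSG00000025161, chromosome 11, 120948480 to 120960868, plus strand). It had 72.6 and 70.4 CPM in the KO pair against 36.3 and 41.3 CPM in the WT pair, for a log2 fold change of 0.88 with SE 0.076 (edgeR adjusted p = 3.90e-10), the largest of the 42 genes. Slc16a1, the transporter MCT1 that carries lactate in either direction, had 51.9 and 48.4 CPM in the KO pair against 43.8 and 47.0 CPM in the WT pair and did not pass. Slc16a3 therefore made up 53.8 and 54.8% of the pair per length in KO and 40.9 and 42.2% in WT. In KO it was the more abundant of the 2 and in WT the less abundant.

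Ldha, the lactate dehydrogenase subunit that favours lactate formation, had 1922 and 1843 CPM in the KO pair against 1806 and 1800 CPM in the WT pair, for a log2 fold change of 0.06 with SE 0.025 (edgeR adjusted p = 0.0504), just outside the threshold. Ldhb, the heart subunit, fell by 0.15 on the log2 scale (SE 0.058, adjusted p = 0.0400, edgeR), with 103.1 and 92.1 CPM in the KO pair against 107.1 and 110.1 CPM in the WT pair. Its call ended without KO replicate 2, at -0.07, and without WT replicate 2, at -0.14. Pdha1, the catalytic subunit of pyruvate dehydrogenase, which sends pyruvate to the mitochondria, fell by 0.15 (SE 0.042, adjusted p = 0.00662, edgeR), and this call ended without KO replicate 1 or WT replicate 1, at -0.13 each. The kinases that switch off that enzyme, Pdk1, Pdk2 and Pdk4, had log2 fold changes of 0.11, 0.03 and 0.27, none of which passed. Pdk3, the other kinase of this kind and not among the 42 genes, was lower in KO at -0.24. Pdk1, the kinase that HIF induces, had 25.4 and 23 CPM in the KO pair against 22.1 and 22.7 CPM in the WT pair.

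**Figure D3:**
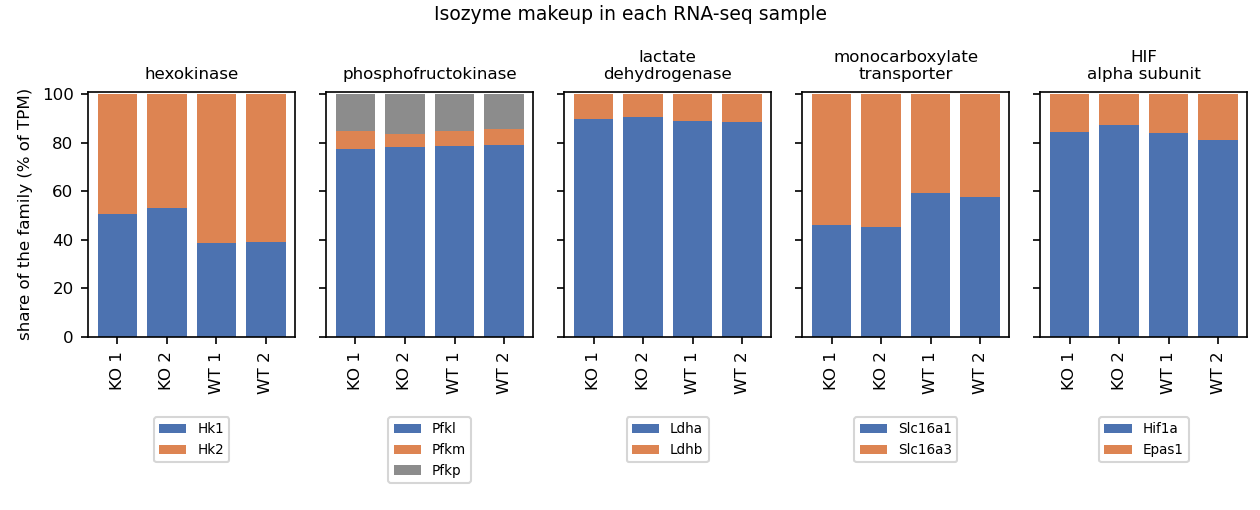
Share of each isozyme in the summed TPM of those family members that are among the 42 genes, in percent, for each RNA-seq sample (bars from 0 to 100%, KO left of WT). The hexokinase and monocarboxylate transporter pairs differ by 12.9 and 12.8 percentage points between KO and WT, and the phosphofructokinase, lactate dehydrogenase and HIF α families by at most 3.28.

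The makeup of the isozyme families is a description of 2 samples per genotype, for which an exact two-sided permutation test cannot give a p below 0.333. Hk1 made up 51.7 ± 1.67% of the hexokinase pair in KO, against 38.8 ± 0.231% in WT (SD, n = 2). Slc16a3 made up 54.3 ± 0.662% of its pair in KO and 41.5 ± 0.947% in WT. Pfkl held 77.8 ± 0.38% of phosphofructokinase in KO and 78.9 ± 0.249% in WT, and Ldha 90.2 ± 0.445% of lactate dehydrogenase in KO and 88.7 ± 0.215% in WT. Aldoa made up 99.9% of the sum of Aldoa and Aldoc, and Eno1 99.9% of the sum of Eno1 and Eno2, in both genotypes. These shares depend on the lengths used: with the longest transcript as length, Hk1 held 66.3% of its pair in KO and 53.9% in WT, so that it was the more abundant of the hexokinases in both genotypes.

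The HIF α subunits were lower in KO. Epas1, the subunit HIF2α that is prominent in endothelium and the stroma (ENSMUSG00000024140, chromosome 17, 86753700 to 86833410, plus strand), had 26.2 and 23.4 CPM in the KO pair against 34.2 and 39.9 CPM in the WT pair, for a log2 fold change of -0.58 with SE 0.10 (edgeR adjusted p = 4.75e-05). Hif1a, the subunit most tied to glycolytic targets (ENSMUSG00000021109, chromosome 12, 73901375 to 73947530, plus strand), had 149 and 169 CPM in the KO pair against 189 and 180 CPM in the WT pair, for a log2 fold change of -0.22 with SE 0.053 (edgeR adjusted p = 0.00215). KO was below WT in every sample for both genes, though the gap for Hif1a was narrow and its call ended without KO replicate 1, at -0.13. Arnt, the shared partner, had 26.8 and 28.4 CPM in the KO pair against 27.6 and 27.3 CPM in the WT pair and did not pass. Endothelial markers, whose cells are known for HIF2α, summed to more in these KO libraries, at 144 and 155 CPM against 115 and 109 CPM in WT. Not every marker moved that way, since Flt1 fell, and the part of such cells in the Epas1 values was not tested. HIF activity is set largely by protein stability, which RNA does not show.

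The oxygen-sensing genes differed among themselves. Egln3, a prolyl hydroxylase that HIF itself induces, had 19.7 and 16.4 CPM in the KO pair against 11.6 and 12.5 CPM in the WT pair, for a log2 fold change of 0.58 with SE 0.14 (edgeR adjusted p = 0.00223), a call that DESeq2 did not make. Egln1, the main prolyl hydroxylase in most cells, was at -0.13 and Vhl, the ligase subunit, at 0.05, and neither passed. With the α subunits and Arnt, 1 of 6 genes rose, 2 fell and 3 did not pass, beside 18.3% of all tested genes higher and 17.4% lower. Their median log2 fold change was -0.06.

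The HIF targets outside glycolysis were the role with the highest share of calls, 8 of 9, beside 35.7% of all tested genes. They split by direction. The roles are small and their members were picked when earlier results of these data were known, so this share is descriptive. Among the 29 tested further HIF targets, 7 rose and 6 fell. Vegfa, Adm, Bnip3 and Bnip3l were no longer called once a BCV of 0.1 was assumed, while Ankrd37, Ddit4, Kdm3a and Ndrg1 were. Ankrd37, a small ankyrin-repeat protein that hypoxia induces strongly (ENSMUSG00000050914, chromosome 8, 45996902 to 46005707, minus strand), had 13.8 and 14.4 CPM in the KO pair against 9.71 and 6.86 CPM in the WT pair, for a log2 fold change of 0.77 with SE 0.17 (edgeR adjusted p = 0.000674). Its WT samples differed from each other by more than its KO samples did. Ddit4, the hypoxia and stress gene that restrains mTOR signalling (chromosome 10), had 55.9 and 55.2 CPM in the KO pair against 42.6 and 37.05 CPM in the WT pair, for a log2 fold change of 0.48 with SE 0.081. Kdm3a, a histone demethylase (chromosome 6), had 40.3 and 43.5 CPM in the KO pair against 28.9 and 31.3 CPM in the WT pair, for a log2 fold change of 0.48 with SE 0.090. For both genes the KO samples lay clear of the WT samples.

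Vegfa, the main angiogenic growth factor (chromosome 17), had 40.4 and 37.1 CPM in the KO pair against 31.4 and 28.3 CPM in the WT pair, for a log2 fold change of 0.38 with SE 0.092 (edgeR adjusted p = 0.00202), a call that DESeq2 did not make. Bnip3, a receptor for the removal of mitochondria (chromosome 7), had 365 and 357 CPM in the KO pair against 284 and 299 CPM in the WT pair, for a log2 fold change of 0.31 with SE 0.040 (edgeR adjusted p = 6.00e-07). Of its 100-base windows 24.6% also occur in other genes, so its size is uncertain. Its relative Bnip3l moved the other way, with 168 and 169 CPM in the KO pair against 189 and 193 CPM in the WT pair, for a log2 fold change of -0.18 with SE 0.046 (edgeR adjusted p = 0.00294), and shares 14% of its windows.

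Ndrg1, a stress-response protein and a common hypoxia marker (ENSMUSG00000005125, chromosome 15, 66929318 to 66969640, minus strand), fell farthest of the targets. It had 34 and 31.7 CPM in the KO pair against 52.2 and 45.9 CPM in the WT pair, for a log2 fold change of -0.58 with SE 0.087 (edgeR adjusted p = 6.68e-06). Adm, the vasodilator peptide adrenomedullin and the most abundant of these targets in TPM (chromosome 7), had 309 and 305 CPM in the KO pair against 356 and 369 CPM in the WT pair, for a log2 fold change of -0.24 with SE 0.039 (edgeR adjusted p = 1.91e-05). Mxi1, a MYC antagonist, overlapped between genotypes and did not pass. The called hypoxia-induced genes outside glycolysis thus had no common direction: Ankrd37, Egln3, Ddit4, Kdm3a, Vegfa and Bnip3 were higher in KO, and Ndrg1, Adm and Bnip3l were lower. The KO samples also held more RNA of the tested macrophage markers, 173 CPM in each against 98.9 and 96.3 CPM in WT, although Csf1r did not pass. The part of this RNA in the values of the hypoxia-induced genes was not tested.

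**Figure D4:**
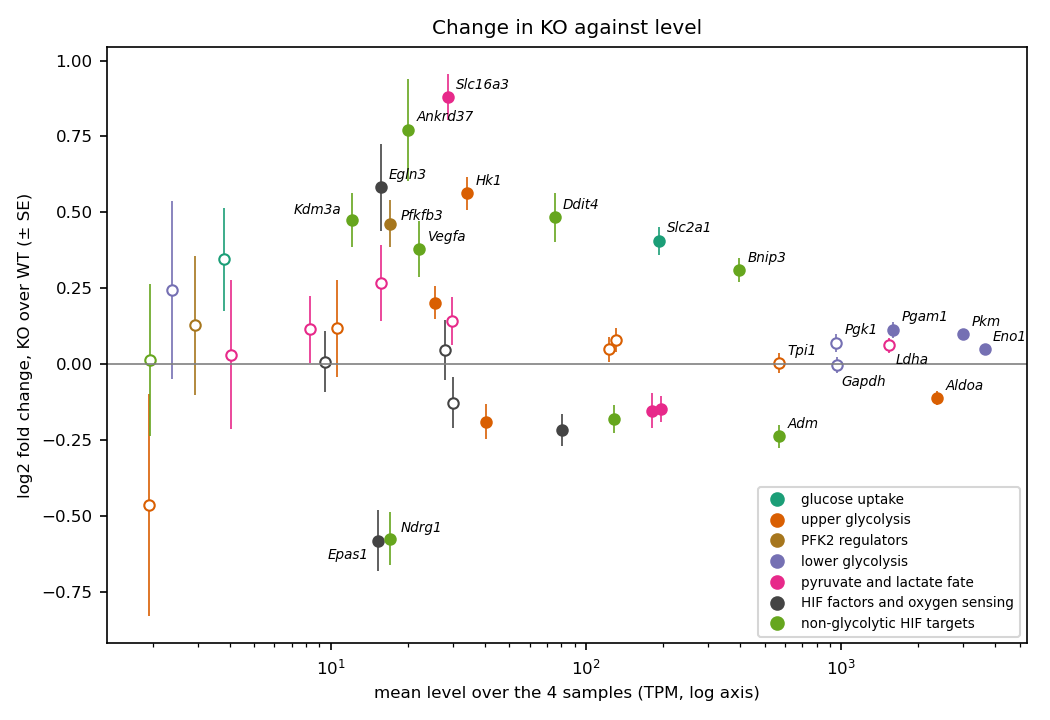
Log2 fold change of KO over WT (vertical axis, bars ± SE) against the mean TPM over the 4 samples (log axis) for the 42 genes, coloured by role, with filled points for called genes. The abundant enzymes on the right lie between -0.11 and 0.11, while the called genes of lower level spread from -0.58 to 0.88.

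The promoters of these genes were read for the HIF core motif in its variants ACGTG and GCGTG on both strands, in RefSeq windows (build GRCm38.p6) that run from 250 bases before a start site to 50 after it. A window was found for 38 of the 42 genes. Of these, 29 held at least 1 copy, or 76.3%, against 43.8% of all 32851 windows. The variant ACGTG was in 47.4% against 19.6% of all windows, and GCGTG in 55.3% against 32.4%. Copies stood in 11 of 14 windows of genes that rose, in 5 of 6 of genes that fell and in 13 of 18 of genes that did not pass. The genes without a window were Epas1, Ndrg1 and Bnip3l, which fell, and Slc2a3, which did not pass. The windows of genes that fell thus leave out Epas1 and Ndrg1, the called genes with the largest decreases. A CACGTG counts as ACGTG on each strand, and a match is not evidence of HIF binding. The members were chosen as glycolytic genes and HIF targets, with 1 window each. The 32851 windows were neither limited to 1 per gene nor matched to the members in expression or base composition. The 6 sequences below are those with the largest changes among called genes of lower glycolysis, of pyruvate and lactate and of the HIF targets outside glycolysis that hold a copy. They are shown because they carry the motif in genes that moved in different directions, with Adm as the one that fell. Capitals mark the core motif on either strand, and sequences run 5′ to 3′ along the gene.
Slc16a3 promoter (chr11:120948817-120949116, plus strand): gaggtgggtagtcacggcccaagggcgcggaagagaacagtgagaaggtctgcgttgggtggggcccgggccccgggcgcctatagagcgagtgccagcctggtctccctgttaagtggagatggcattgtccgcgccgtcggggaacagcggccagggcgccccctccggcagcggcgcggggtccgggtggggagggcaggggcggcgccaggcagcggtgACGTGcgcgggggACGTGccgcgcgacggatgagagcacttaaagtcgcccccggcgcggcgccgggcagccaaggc
Ankrd37 promoter (chr8:45999801-46000100, minus strand): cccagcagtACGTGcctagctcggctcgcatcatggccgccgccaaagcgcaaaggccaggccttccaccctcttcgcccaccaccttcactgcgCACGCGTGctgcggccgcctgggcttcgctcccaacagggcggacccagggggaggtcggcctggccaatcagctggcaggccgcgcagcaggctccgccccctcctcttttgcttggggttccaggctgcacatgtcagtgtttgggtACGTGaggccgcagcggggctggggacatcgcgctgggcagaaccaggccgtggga
Ddit4 promoter (chr10:59951721-59952020, minus strand): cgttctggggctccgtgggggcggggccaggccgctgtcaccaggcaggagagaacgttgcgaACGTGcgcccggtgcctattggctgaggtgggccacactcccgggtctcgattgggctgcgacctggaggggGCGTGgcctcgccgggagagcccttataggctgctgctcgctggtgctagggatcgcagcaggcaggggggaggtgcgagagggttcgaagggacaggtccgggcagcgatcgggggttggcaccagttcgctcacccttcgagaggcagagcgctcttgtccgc
Kdm3a promoter (chr6:71632868-71633167, minus strand): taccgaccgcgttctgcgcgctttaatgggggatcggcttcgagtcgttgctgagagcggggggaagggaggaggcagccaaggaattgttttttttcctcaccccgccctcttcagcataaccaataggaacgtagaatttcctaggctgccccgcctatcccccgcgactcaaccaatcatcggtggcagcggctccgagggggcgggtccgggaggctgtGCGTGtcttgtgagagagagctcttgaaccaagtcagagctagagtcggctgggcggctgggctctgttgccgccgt
Bnip3 promoter (chr7:138909457-138909756, minus strand): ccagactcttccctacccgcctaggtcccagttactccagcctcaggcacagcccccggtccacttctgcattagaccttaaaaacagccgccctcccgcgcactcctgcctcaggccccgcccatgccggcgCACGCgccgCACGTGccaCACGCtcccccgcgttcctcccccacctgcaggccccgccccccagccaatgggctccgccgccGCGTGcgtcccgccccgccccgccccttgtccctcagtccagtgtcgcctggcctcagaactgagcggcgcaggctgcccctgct
Adm promoter (chr7:110627407-110627706, plus strand): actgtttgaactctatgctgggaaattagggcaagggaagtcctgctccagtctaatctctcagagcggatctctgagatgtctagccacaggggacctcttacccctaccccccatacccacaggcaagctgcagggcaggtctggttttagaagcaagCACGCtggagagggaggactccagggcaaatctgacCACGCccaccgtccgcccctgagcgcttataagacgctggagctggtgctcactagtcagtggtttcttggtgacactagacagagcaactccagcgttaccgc

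Slc16a3 held 2 copies of ACGTG, 27 and 14 bases before the start site, and Bnip3 a CACGTG 108 bases before it together with 3 copies of GCGTG. Ankrd37 held 2 copies of ACGTG, the nearer 6 bases before the start, and 2 overlapping copies of GCGTG on opposite strands. Ddit4 had 1 copy of each variant, Kdm3a 1 copy of GCGTG 27 bases before the start, and Adm 2 copies of GCGTG on the opposite strand. The windows follow RefSeq starts. They lie at most 73 bases from the GENCODE gene start for Ddit4, Kdm3a, Bnip3 and Adm, but 587 bases from it for Slc16a3 and 5857 bases for Ankrd37.

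Open chromatin at the promoters could be described but not tested, with 1 library per genotype. A peak overlapped 1 kb around the gene start for 40 of the 42 genes in KO and 40 in WT, the same 40 genes, against 93.6% of all tested genes in each library. Hk1 and Hif1a had none there, although with any annotated transcript start taken all 42 had 1 in each library. The authors' fold enrichment of the strongest promoter peak ran from 7.65 for Aldoc to 42.5 for Pfkfb3 in the KO list, with a median of 22.7. Over all peaks the median fold enrichment was also higher in the KO list, at 6.38 against 5.75 in the WT list. For the members in the WT list the strongest promoter peak ran from 6.16 for Ldha to 34.9 for Pfkl, with a median of 19.9. That Ldha peak ran from -1202 to -647 bases relative to the gene start used here. The RefSeq start of Ldha is 4329 bases from this start, and every motif copy in its RefSeq window was inside a peak of each library. The value of 6.16 therefore does not describe the RefSeq promoter of Ldha.

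Most motif copies lay inside peaks in both genotypes, as most gene starts had a peak. Of 72 copies in the 29 windows, 69 were inside a KO peak and 70 inside a WT peak, and for 28 of the 29 genes at least 1 copy was inside a peak in both. Of all tested genes, 93.6% had a peak within 1 kb of the start in each library. The share of copies inside peaks over all promoter windows was not counted, so these counts do not single out the motif or the members. At the 6 printed promoters every copy was inside a peak of each library. The promoter peak of Slc16a3 covered 4359 bases in KO and 4491 bases in WT, and that of Ankrd37 1598 bases in KO and 1670 bases in WT. Over the gene bodies of the 42 genes with 5000 bases on either side, 242 peaks were listed in KO and 277 in WT. Of these, 200 KO peaks (82.6%) overlapped a WT peak by at least 1 base and 212 WT peaks (76.5%) a KO peak, where 76.3% of all KO peaks and 75.6% of all WT peaks did so.

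**Figure D5:**
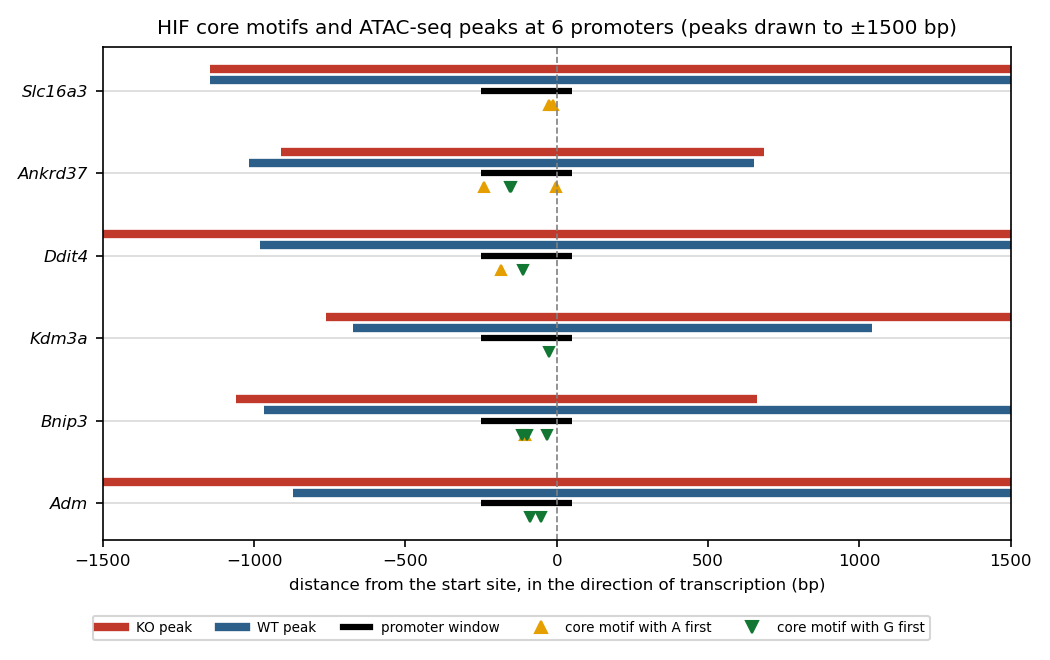
The 6 printed promoters, with distance from the RefSeq start site in bases on the horizontal axis; red bars are KO peaks, blue bars WT peaks (cut off at the edges of the plot), black bars the printed windows, and triangles the core motif copies, upward for ACGTG and downward for GCGTG. Every triangle lies under a peak of each library.

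Genes of the same pathways outside the 42 were read from lists. Of 32 further glycolysis and pyruvate genes, 20 were abundant enough to test. Of these, 3 fell and 0 rose, beside 17.4% and 18.3% of all tested genes. In edgeR 0 were higher at an unadjusted p under 0.05, a share that was not counted for all tested genes. DESeq2 made 0 calls among them, where it called 2058 of all 12192 tested genes. The median log2 fold change was 0.03. The 3 that fell were Slc2a10, a transporter linked to the arterial wall (4.73 and 4.66 CPM in the KO pair against 8.87 and 7.74 CPM in the WT pair, log2 fold change -0.82), Pdp2, a phosphatase that activates pyruvate dehydrogenase (-0.32), and Pdk3, a kinase that inactivates it (-0.24). The call of Pdp2 ended without KO replicate 2 or WT replicate 2, and that of Pdk3 without KO replicate 1, KO replicate 2 or WT replicate 1. Subunits of the pyruvate dehydrogenase complex, Pdhb, Dlat, Dld and Pdhx, had changes between -0.04 and 0.04 and did not pass.

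Of 8 tested genes of the HIF machinery outside the set, 1 rose and 2 fell, beside 18.3% and 17.4% of all tested genes. Cited2, which competes with HIF for its coactivators, had 411 and 416 CPM in the KO pair against 332 and 339 CPM in the WT pair, for a log2 fold change of 0.30 with SE 0.037 (edgeR adjusted p = 2.56e-07). Rbx1 and Elob, components of the VHL ubiquitin ligase, had log2 fold changes of -0.22 and -0.12, and the call of Elob ended without KO replicate 2 or WT replicate 1. Of 29 tested further HIF targets, 7 rose and 6 fell, beside 18.3% and 17.4% of all tested genes, with a median of -0.004. Stc1, the secreted hormone stanniocalcin, had 8.5 and 9.31 CPM in the KO pair against 19.1 and 20.1 CPM in the WT pair, for a log2 fold change of -1.14 with SE 0.14 (edgeR adjusted p = 4.37e-07), and was the one gene named from these 3 lists whose call remained with an assumed BCV of 0.2. Ier3, an immediate early gene, had 281.5 and 282 CPM in the KO pair against 191.5 and 175 CPM in the WT pair, for a log2 fold change of 0.62 with SE 0.046, and Gys1, the glycogen synthase of muscle, had 26.9 and 29.7 CPM in the KO pair against 17.3 and 19.8 CPM in the WT pair, for a log2 fold change of 0.61 with SE 0.11. Kdm4b, a histone demethylase, had a log2 fold change of 0.70 with SE 0.22, a call that ended with DESeq2 and without KO replicate 2 or WT replicate 2.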

How the data were processed

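Samples were grouped by genotype label, with RNA-seq of 2 and ATAC-seq of 1 per genotype. RNA values came as a single deposited gene table of estimated counts; the submitters' processing notes name Trim Galore 0.6 for trimming and STAR 2.5.3a for alignment, on mm10. How genes were counted (program, annotation, strand) is not given in the sources used here. Per the labels' protocols values were adjusted to TPM, but the deposited columns sum to 8429166 to 11370115 and 10.8 to 12.2% of values are not whole, so they were taken as estimated counts and rounded; whole counts had been assumed when tests were planned. The deposited peak lists hold MACS2's score, fold enrichment (ratio to background) and −log10 p- and q-values per peak, called separately per sample after Bowtie2 2.3 alignment, per the labels' protocols.

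The test was edgeR's (version 4.0.16, R 4.3.3; filterByExpr with minimum count 10, TMM, quasi-likelihood test of genotype, Benjamini-Hochberg over 12192 genes at 0.05); SE was taken as the size of the log2 fold change over the root of the F statistic. TMM-scaled libraries gave the CPM. TPM was computed here from the estimated counts and GENCODE M21 exon-union lengths, which are not isoform-specific; of 25746 identifiers, 25712 were found there, 25535 with identical coordinates. Alternatives were other scalings, no filter, DESeq2 1.42.0, a replicate block, assumed BCVs of 0.1 and 0.2, and leaving out each library. The test was checked on simulated counts. Replicates differed by more than sampling noise (chi-square per degree of freedom 1.99 in KO and 1.77 in WT, 17.4 to 18.1 between genotypes), so all 4 were kept.

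The members and lists were chosen with earlier results of these data known. Sample values are given for members called with an absolute log2 fold change of at least 0.3, the most abundant member of each role, and Hif1a, Epas1 and Arnt; other members are given by fold change, range or sample values, and up to 4 called genes per further list. Sequences are RefSeq's (GRCm38.p6). Coordinates are 1-based mm10.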

Additional observations from a re-analysis of the deposited data

How the results depend on the processing

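The number of called genes was 4352 with the main settings, 2058 with DESeq2, and 1780 and 398 with an assumed BCV of 0.1 and 0.2. Among the 42 genes, 14 higher and 9 lower calls became 8 and 2 with a BCV of 0.1, and 0 and 0 with a BCV of 0.2. Leaving out each library in turn gave 3392 to 3674 calls over all genes, 12 to 15 higher and 7 to 8 lower among the 42, and a median log2 fold change of 0.072 to 0.106; 16 of the 23 calls held in all of these fits. The same-numbered samples did not deviate together (correlation 0.034 over 10100 genes). This shows no strong shared shift, but it cannot show whether those samples were paired. With the replicate number as a block, 4408 genes were called, 16 of the 42 higher and 9 lower. Scaling by library size gave 16 and 8, DESeq2 size factors 13 and 9, no filter 14 and 8, and the DESeq2 test 10 and 7.

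Signs changed for 9 members, none of them called. Tpi1 was -0.003 with DESeq2 size factors and with DESeq2, and Gapdh 0.019 with library size and 0.001 without a filter. Leaving out a library moved Tpi1 between -0.027 and 0.03, Gapdh between -0.027 and 0.019, Arnt between -0.032 and 0.044, Vhl between -0.029 and 0.122, Pfkm between -0.114 and 0.31, Pfkfb4 between -0.01 and 0.248, Pdk2 between -0.157 and 0.197, Eno2 between -0.237 and 0.909, and Mxi1 between -0.284 and 0.358. With any transcript start, 42 members had a promoter peak in KO and 42 in WT. With the longest transcript as length, the KO minus WT difference in share moved by more than 1 SD only for Ldha and Ldhb, to 1.01 and -1.01 percentage points. The shares themselves moved more: Hk1 was then at 66.3% in KO and 53.9% in WT, and Pdk4 at 47.9% in KO and 44.9% in WT, against 57.3% in KO and 54.2% in WT with exon-union lengths. Only the length used differed between these shares, since the counts were the same. With 2 samples per genotype and 8429166 or more counts each, genes under about 5 CPM such as Aldoc, Eno2 and Mxi1 limit what can be seen.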

Other observations

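Beyond the genes already named, other HIF targets changed, and those given here were picked after their values were seen. Lox, the lysyl oxidase that crosslinks collagen, was at 1285 and 1363 CPM in the KO pair against 1628 and 1709 CPM in the WT pair, for a log2 fold change of -0.33 with SE 0.029. Plod2, a lysyl hydroxylase of collagen, fell by 0.18 and P4ha1, a collagen prolyl hydroxylase, by 0.17 on the log2 scale, while P4ha2 was at -0.08 and did not pass. Tmem45a and Stc2 fell by 0.31 and 0.38. On the higher side, Car12, a carbonic anhydrase at the cell surface, was at 0.43, Angptl4, an inhibitor of lipoprotein lipase, at 0.17 and Hmox1, the haem oxygenase, at 0.17. Car9, a common marker of hypoxia, held 9 and 4 counts in the KO pair against 4 and 1 in the WT pair and was not tested.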
